A study of Mus musculus with 4 samples.

Results

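The genes described here encode the machinery of mitochondrial respiration and of the citric acid cycle. They are 42 genes chosen by name: 12 subunits of complex I, the 4 subunits of complex II, 5 subunits of complex III, cytochrome c, 5 subunits of complex IV, 5 subunits of complex V and 10 enzymes or enzyme subunits of the cycle. Of the 42, 41 had a named probe, and they are 41 of the 13206 genes tested on these arrays. The remaining one, Fh1, had no probe matched by name. The rule is a list of names and holds no threshold on a measured value, but the list was chosen with earlier results of these data known.

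In the citric acid cycle, acetyl groups are oxidised to carbon dioxide in the mitochondrial matrix, and the electrons pass to NADH and FADH2. Complexes I and II hand these electrons to ubiquinone, complex III passes them on to cytochrome c, complex IV reduces oxygen, and complex V uses the resulting proton gradient to make ATP. Complex II is also an enzyme of the cycle, and it is the only respiratory complex whose subunits are all encoded in the nucleus. Muscle and brown fat, both of which can lie within a dissected mammary gland, are rich in mitochondria.

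RNA came from mammary glands of 13-week-old female mice carrying Δ16HER2, the tumour-promoting splice variant of the human receptor HER2, collected at a stage the labels call pre-neoplastic. There were 2 samples labelled wild type for stathmin (WT 1 and WT 2) and 2 labelled stathmin knockout (knockout 1 and knockout 2), and the transgene is common to both groups. Each was hybridised to a one-colour Agilent array, and the question is how expression in the transgenic gland differs when stathmin, a protein that destabilises microtubules, is missing. The strain, the promoter that drives the transgene, and whether glands of several mice were pooled are not given in the sources used here. One field of the labels calls the tissue epithelial and another names a cancer cell type that disagrees with all other labels, which was not used. The RNA is that of whole tissue, so fewer cells of a type and less RNA per cell cannot be told apart.

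Levels are log2 signals relative to the 75th percentile of the array, so a level of 1 is a signal 2 times that percentile. Differences in level are called fold changes, knockout minus wild type, and are given with the standard error (SE) of the limma fit over n = 2 arrays per group. Across the arrays, 54.7% to 66.2% of spots were well above background, and no spot was saturated. The brighter of the 2 Stmn1 probes read 5.59 and 3.59 on the WT arrays against 4.56 and 3.34 on the knockout arrays, a fold change of -0.64 ± 0.76 (SE). The dimmer one was well above background on 1 wild-type array and on neither knockout array. Where the probes lie relative to the deleted part is not given in the sources used here, so the arrays are called by their labels. The labels do not say that each array came from a separate mouse, so p-values reflect only the spread among these samples.

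Promoter windows of the 42 genes were read from RefSeq on GRCm38.p6, 250 bases before to 50 bases after each annotated start. They covered 32 of the genes with 39 windows. Both strands were searched for the letters of factors known to bind promoters of respiratory genes: GCGCATGC for NRF1, CCGGAAGT for GABP, AAGGTCA for the oestrogen-related receptors and AAGATGGC for YY1. The NRF1 letters stood in 12.8% of the 39 windows, against 2.71% of all 32851 windows, and the YY1 letters in 10.3% against 2.75%. The GABP letters stood in 5.13% against 3.89%, and those of the oestrogen-related receptors in 5.13% against 4.72%. At least 1 of the 4 motifs was found in 33.3% of the 39 windows and in 13.3% of all windows. Such a match is a description of the letters and not a binding site.

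The genes with the NRF1 letters were Cycs, Ogdh, Sdhb and Uqcrc1. The YY1 letters were in windows of Idh3g, Ndufa9, Ndufb8 and Ndufs7, the GABP letters in Dlst and Ndufs3, and the receptor letters in Ogdh and Sdhd. The windows below are those of 2 complex II genes, 1 with and 1 without the NRF1 letters, of cytochrome c and of a complex III subunit. They are shown because complex II is the one complex in which most genes were higher on the knockout arrays with no overlap, and because Cycs and Uqcrc1 carry the same letters and had negative fold changes. Capitals mark the NRF1 letters on either strand. In Uqcrc1 matches on both strands overlap and lie after the start, and in Sdhb and Cycs the single match lies before it. The windows are chr13:74350191-74350490 on the minus strand (Sdha), chr4:140961021-140961320 on the plus strand (Sdhb), chr6:50566520-50566819 on the minus strand (Cycs) and chr9:108936398-108936697 on the plus strand (Uqcrc1), each 300 bases, 5′ to 3′.
Sdha: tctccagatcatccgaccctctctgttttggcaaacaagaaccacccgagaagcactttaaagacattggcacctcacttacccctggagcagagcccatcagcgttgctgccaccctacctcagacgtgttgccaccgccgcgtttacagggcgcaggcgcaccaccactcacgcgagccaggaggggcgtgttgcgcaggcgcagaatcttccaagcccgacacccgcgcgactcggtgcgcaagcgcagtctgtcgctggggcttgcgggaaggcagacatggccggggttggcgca
Sdhb: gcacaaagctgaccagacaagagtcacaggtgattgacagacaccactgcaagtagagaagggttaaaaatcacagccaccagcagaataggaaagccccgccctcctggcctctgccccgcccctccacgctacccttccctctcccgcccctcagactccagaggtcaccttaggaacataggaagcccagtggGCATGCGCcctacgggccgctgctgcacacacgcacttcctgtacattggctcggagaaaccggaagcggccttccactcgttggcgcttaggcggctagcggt
Cycs: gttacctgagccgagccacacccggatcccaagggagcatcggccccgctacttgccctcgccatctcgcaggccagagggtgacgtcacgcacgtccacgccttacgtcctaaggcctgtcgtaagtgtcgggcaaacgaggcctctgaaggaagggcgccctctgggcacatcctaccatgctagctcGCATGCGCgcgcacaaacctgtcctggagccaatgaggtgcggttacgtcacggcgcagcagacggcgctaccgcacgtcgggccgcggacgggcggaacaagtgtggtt
Uqcrc1: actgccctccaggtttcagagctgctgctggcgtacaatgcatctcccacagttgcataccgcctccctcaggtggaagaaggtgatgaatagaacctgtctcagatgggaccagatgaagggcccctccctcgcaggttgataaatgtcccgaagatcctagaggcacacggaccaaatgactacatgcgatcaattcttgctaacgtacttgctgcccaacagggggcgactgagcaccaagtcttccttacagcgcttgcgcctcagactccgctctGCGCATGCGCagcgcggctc

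As a group the genes were abundant and did not separate the genotypes. All 41 were well above background on all 4 arrays. Of the fold changes, 20 were positive and 21 negative, and their median was -0.01, as was the median over all tested genes. No gene passed limma's test at an adjusted p of 0.05 (0 of all 13206 genes, 0%), and the adjusted p of the 41 ran from 0.936 to 0.998. At an unadjusted p under 0.05 there was 1 gene higher on the knockout arrays, Ndufa10, where the background share is 1.14%. There was also 1 gene lower, Cox6c, where the background share is 2.41%.

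For 12 of the 41 genes both knockout readings exceeded both WT readings, against 17.8% of all genes, and for 8 both were lower, against 17.7%. The 41 fold changes were small beside the precision of the design: the median half-width of the 95% confidence interval was 0.66. Only 5 exceeded 0.5 in size and none exceeded 1. For 27 of the 41 genes the arrays of 1 group differed from each other by more than the groups did. A fold change that misses the test here therefore does not show that the genotypes have equal levels.

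**Figure D1:**
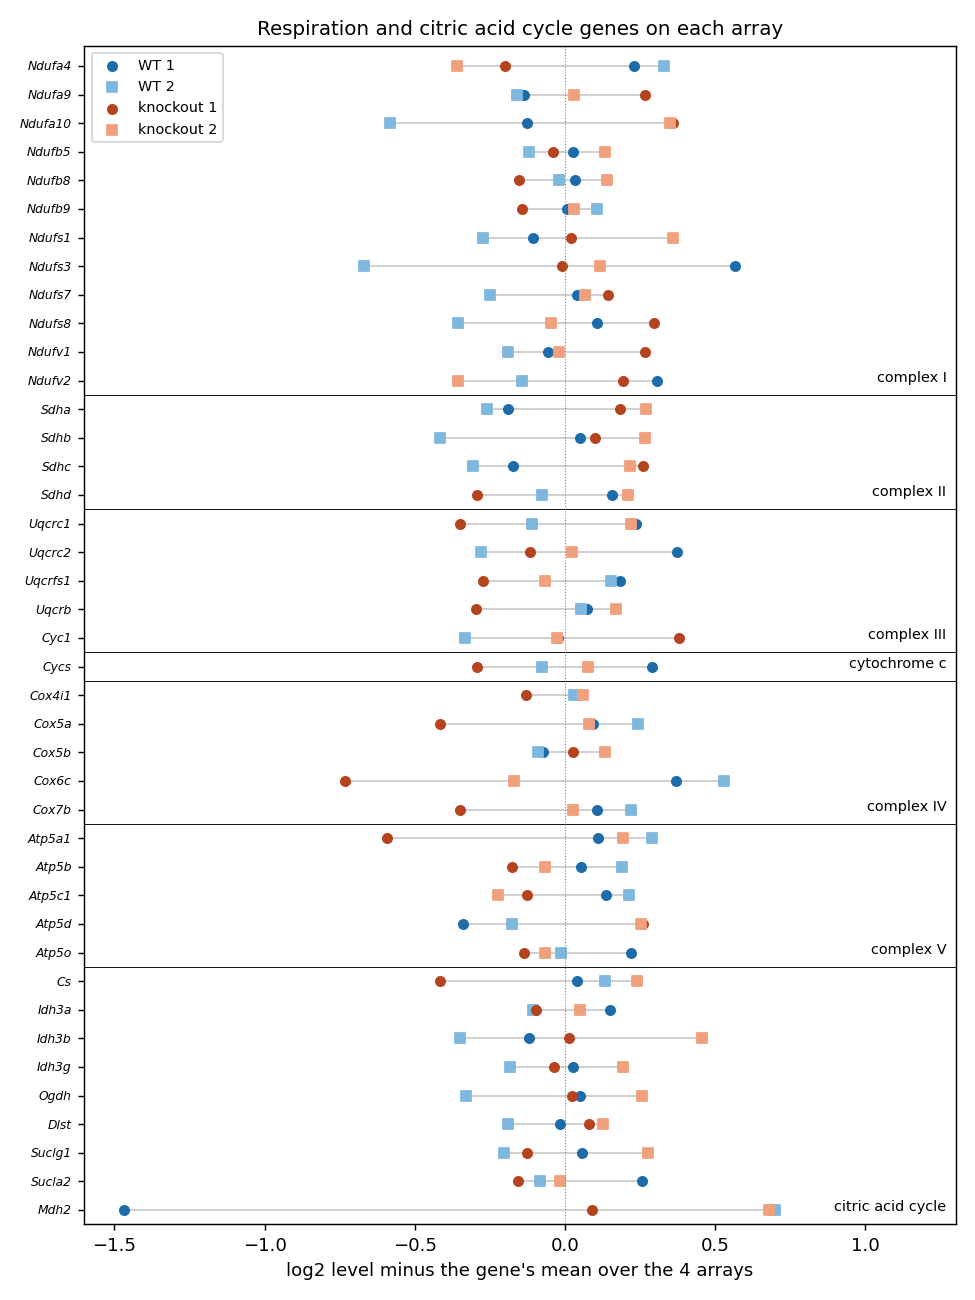
Log2 level of each of the 41 genes on each array (horizontal axis), minus the gene's own mean over the 4 arrays, with blue for wild type and orange for knockout, and circles for sample 1 and squares for sample 2. Mdh2 has the widest range, 2.17, through WT 1, followed by Cox6c and Ndufs3 at 1.26 and 1.24.

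Complex I, which takes electrons from NADH, had a mixed picture. Of its 12 genes, 8 had positive and 4 negative fold changes, with a median of 0.16, which was 0.31 without WT 1 and 0.019 without WT 2. Ndufa10, an accessory subunit, read 3.79 and 3.34 on the WT arrays against 4.28 and 4.27 on the knockout arrays. Both knockout readings lay above both wild-type ones, with a fold change of 0.71 ± 0.27 (limma unadjusted p = 0.0468, adjusted p = 0.936) and a 95% interval from 0.01 to 1.40. Ndufa4, first described in complex I and now assigned to complex IV, went the other way. It read 5.21 and 5.31 on the WT arrays against 4.78 and 4.62 on the knockout arrays, with a fold change of -0.56 ± 0.24, the lowest of the 12.

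The listed nuclear subunits of the catalytic core, which binds the flavin and the iron-sulfur clusters, were mostly on the positive side. Ndufs1, which carries several of the clusters, read 5.81 and 5.64 on the WT arrays against 5.93 and 6.27 on the knockout arrays. Its groups did not overlap and its fold change was 0.38 ± 0.26, but with normexp background correction it became -0.16. Ndufs3 read 3.83 and 2.60 on the WT arrays against 3.26 and 3.38 on the knockout arrays. Both knockout readings lay between the wild-type ones, so its fold change of 0.11 ± 0.45 was far smaller than the spread within wild type, and it was 0.72 without WT 1 and -0.51 without WT 2. Ndufs7, Ndufs8 and Ndufv1 had fold changes of 0.21, 0.25 and 0.25, and Ndufv2 had -0.16.

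Among the remaining accessory subunits, Ndufa9 had a fold change of 0.296 ± 0.25 without overlap between the groups. Ndufb5, Ndufb8 and Ndufb9 had 0.09, -0.01 and -0.11, each with overlapping groups.

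Complex II, succinate dehydrogenase, was the complex with the highest median, 0.41 over its 4 genes. Sdha, the flavoprotein that oxidises succinate, read 4.39 and 4.32 on the WT arrays against 4.76 and 4.85 on the knockout arrays. The groups did not overlap, and the fold change of 0.45 ± 0.24 was larger than the difference within either group. A second Sdha probe gave 0.39.

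Sdhb, the iron-sulfur subunit whose promoter window holds the NRF1 letters, read 5.56 and 5.09 on the WT arrays against 5.61 and 5.78 on the knockout arrays, a fold change of 0.37 ± 0.28. WT 1 and knockout 1 were close to each other, so its separation rests largely on WT 2. Sdhc, a membrane anchor, read 4.99 and 4.85 against 5.42 and 5.38, a fold change of 0.48 ± 0.24 with both knockout arrays above both wild-type ones. The other anchor, Sdhd, read 5.98 and 5.75 against 5.53 and 6.03. It was lowest on knockout 1 and highest on knockout 2, and its fold change was -0.08 ± 0.29.

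None of the complex II genes passed the test (smallest adjusted p = 0.936). Their median stayed positive under every scaling tried, between 0.39 and 0.60, and with 1 array left out it ran from 0.27 to 0.51.

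Complex III had a median of -0.13 with 1 positive and 4 negative genes, and that median turned to 0.07 under median scaling and to 0.03 with normexp correction. It was 0.046 without WT 1, -0.30 without WT 2, 0.11 without knockout 1 and -0.36 without knockout 2. Uqcrfs1, the Rieske iron-sulfur protein, read 3.80 and 3.77 on the WT arrays against 3.34 and 3.55 on the knockout arrays, a fold change of -0.34 ± 0.24 without overlap. Cyc1, the cytochrome c1 subunit, read 5.58 and 5.27 against 5.98 and 5.57, and with WT 1 just above knockout 2 the groups overlapped (0.35 ± 0.28). Uqcrc1, Uqcrc2 and Uqcrb, the core proteins and a small subunit, had -0.13, -0.09 and -0.13, and a second Uqcrc1 probe gave 0.28.

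Cytochrome c itself, Cycs, carries electrons from complex III to complex IV. It read 5.47 and 5.10 on the WT arrays against 4.89 and 5.25 on the knockout arrays. The groups overlapped, the fold change was -0.21 ± 0.28, and other Cycs probes gave from -0.07 to 0.14.

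Complex IV, cytochrome c oxidase, had the lowest median, -0.32 over 5 genes, of which 4 were negative. Cox6c, a small nuclear subunit, had the largest fold change of all 41 genes in size. It read 4.29 and 4.45 on the WT arrays against 3.19 and 3.75 on the knockout arrays. Both knockout readings lay below both wild-type ones, and the fold change of -0.90 ± 0.30 corresponds to a level 1.87-fold lower (limma unadjusted p = 0.0270, adjusted p = 0.936, 95% interval from -1.65 to -0.15).

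Cox5a read 7.05 and 7.20 on the WT arrays against 6.54 and 7.04 on the knockout arrays. WT 1 and knockout 2 differed by very little, so knockout 1 carries its fold change of -0.34 ± 0.28. Cox7b read 5.52 and 5.63 against 5.06 and 5.44, again lowest on knockout 1 (-0.32 ± 0.26). Cox5b, which binds zinc, was the one positive gene, at 7.27 and 7.25 against 7.37 and 7.48 (0.16 ± 0.24), and the regulatory subunit Cox4i1 had -0.07. With knockout 1 left out the median of complex IV was -0.09, and without knockout 2 it was -0.51. After quantile normalization it was -0.18, just above the -0.19 of complex V, and the median of complex V was also the lower one in the authors' deposited table, with normexp correction, and without knockout 1 or WT 2.

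Complex V, ATP synthase, had 4 of 5 genes on the negative side and a median of -0.24. Atp5d, the delta subunit of the rotor, was the exception. It read 4.75 and 4.91 on the WT arrays against 5.35 and 5.34 on the knockout arrays, a fold change of 0.51 ± 0.24 without overlap. Atp5c1, the gamma subunit of the same rotor, read 6.41 and 6.49 against 6.15 and 6.06, a fold change of -0.35 ± 0.24 without overlap. These neighbouring parts of 1 rotor thus had fold changes of opposite sign, and neither passed the test.

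Atp5a1, the alpha subunit, read 6.52 and 6.70 on the WT arrays against 5.82 and 6.60 on the knockout arrays. Knockout 1 stood apart from the other 3 arrays, and the fold change was -0.40 ± 0.34, or -0.07 on a second probe. Atp5b, the catalytic beta subunit, had -0.24 without overlap, but its other probes gave -0.07 and 0.38. Atp5o, a part of the stalk, had -0.20 without overlap.

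**Figure D2:**
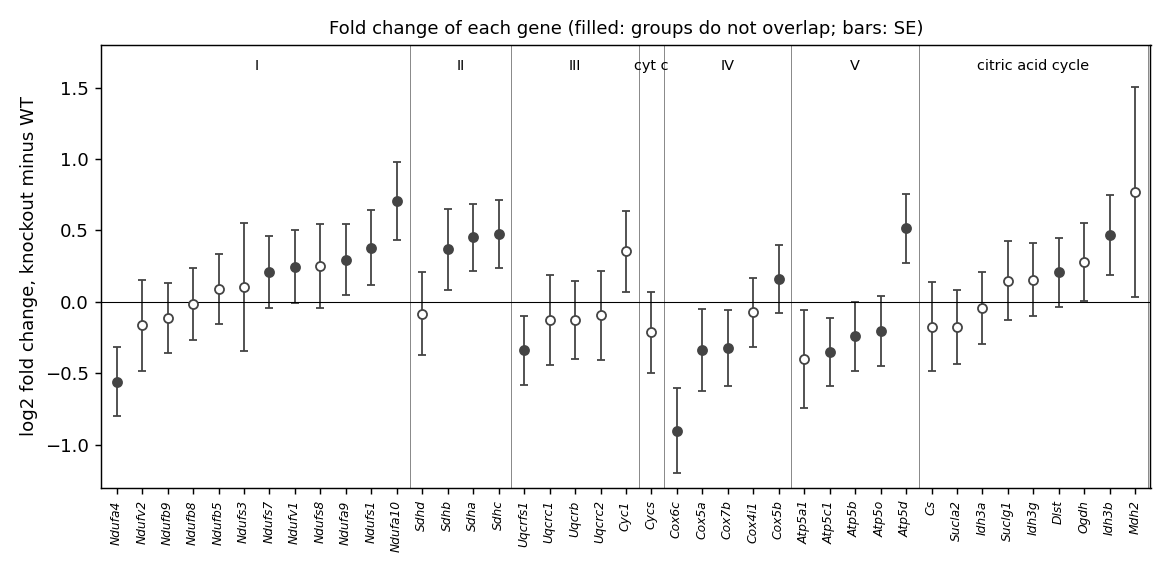
Log2 fold change (knockout minus wild type, vertical axis) of the 41 genes, ordered within each complex, with bars of 1 SE. Filled points are the 20 genes whose groups do not overlap, from Cox6c at -0.90 to Ndufa10 at 0.71, and open points the 21 whose groups overlap.

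The citric acid cycle enzymes had a median of 0.16, with 6 of 9 genes positive. The median was 0.26 without WT 1, 0.050 without WT 2, 0.27 without knockout 1 and 0.042 without knockout 2. Mdh2, the mitochondrial malate dehydrogenase, had the highest fold change and the least certain one, 0.77 ± 0.73. It read 6.18 and 8.35 on the WT arrays against 7.74 and 8.33 on the knockout arrays, so WT 1 alone was low and WT 2 and knockout 2 were nearly equal. Without WT 1 the fold change was -0.32 and without WT 2 it was 1.85. Mdh2 has 1 named probe here.

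Idh3b, a subunit of the NAD-linked isocitrate dehydrogenase, read 5.64 and 5.41 on the WT arrays against 5.77 and 6.22 on the knockout arrays, a fold change of 0.47 ± 0.28 without overlap. Its partner subunits Idh3g and Idh3a had 0.16 and -0.04 with overlapping groups. Cs, citrate synthase, which opens the cycle, read 6.76 and 6.86 against 6.31 and 6.96, with knockout 1 lowest and knockout 2 highest (-0.17 ± 0.31, and 0.08 on a second probe). Dlst and Ogdh, parts of the 2-oxoglutarate dehydrogenase complex, had 0.21 (without overlap) and 0.28. Suclg1 and Sucla2, subunits of succinyl-CoA synthetase, had 0.15 and -0.17.

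The arrays of 1 group differed from each other in a patterned way. WT 1 lay above WT 2 for 30 of the 41 genes (73.2%, against 48.8% of all tested genes), and knockout 1 lay above knockout 2 for 11 (26.8%, against 48.6%). The lowest of the 4 readings fell on WT 2 for 20 genes (48.8%, against 20.7% of all genes) and on knockout 1 for 16 (39.0%, against 30.2%). The complexes did not share 1 low array. Complex I had its lowest mean level on WT 2, at -0.19 relative to the genes' means over the 4 arrays, and complex II likewise, at -0.26. Complex IV had its lowest on knockout 1, at -0.32, and complex V likewise, at -0.15. The cycle enzymes had their highest on knockout 2, at 0.25. These are descriptions with no test.

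**Figure D3:**
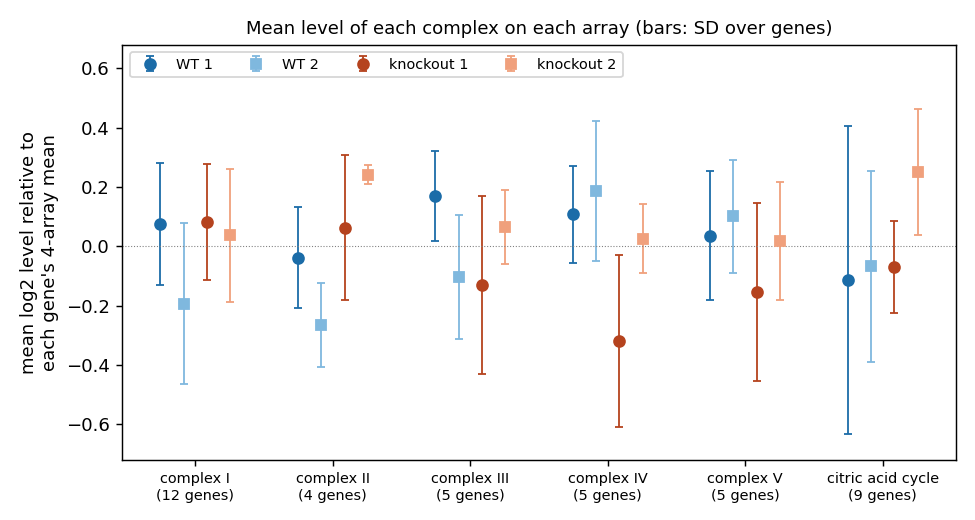
Mean log2 level of each complex on each array (vertical axis), relative to each gene's mean over the 4 arrays, with bars of 1 SD over the genes of the complex, which share the array and are not replicates. Complex IV is lowest on knockout 1 at -0.32, complex II is lowest on WT 2 at -0.26, and the large bars of the citric acid cycle on WT 1 come with Mdh2.

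Markers of other cell types also differed between arrays. The 15 skeletal muscle markers were all well above background on all 4 arrays. List means here and in the next paragraph are relative to each gene's own mean over the 4 arrays. They do not show how abundant the genes were. For the 15 muscle markers, in the order WT 1, WT 2, knockout 1 and knockout 2, the means were 0.30, 0.08, -0.35 and -0.04. Of the 15, 12 were lowest on knockout 1 (80.0%, against 30.2% of all genes). For complex IV the means in the same order were 0.11, 0.19, -0.32 and 0.03. The 8 brown adipocyte markers had means of 0.06, -0.10, -0.14 and 0.18, and 5 had negative and 3 positive fold changes. Ucp1, the uncoupling protein that defines brown fat, had levels (not centred) of 5.44, 5.32, 4.81 and 5.10, a fold change of -0.42 ± 0.25. Prdm16, a dim gene not well above background on every array, went the other way. Its fold change was 1.66 ± 0.42 (limma unadjusted p = 0.00972, adjusted p = 0.936). The 11 white adipocyte markers had means of -0.36, 0.25, 0.08 and 0.03.

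Among epithelial markers, the 11 luminal genes had centred means of 0.30, 0.20, 0.15 and -0.65. The 7 milk protein genes, of which 5 were well above background on every array, had 1.93, 0.29, -2.00 and -0.23. All 6 tested milk protein genes were lower on both knockout arrays than on both WT arrays (100%, against 17.7% of all genes). Their median fold change was -2.70, and 5 of them had an unadjusted p under 0.05, where the background share is 2.41%. The milk protein means on all arrays include Glycam1, which was not tested. Its levels in the same order were 0.53, -4.75, -6.56 and 3.80. Knockout 2 stood apart for lymphocyte genes. The centred means were -0.69, -0.87, -1.74 and 3.30 for 7 B cell markers and -1.01, -1.38, -0.95 and 3.34 for 7 T cell markers. Every array read well above background for only 2 of these B cell and 3 of these T cell markers. The 7 fibroblast markers had means of 0.31, 0.30, -0.29 and -0.32, all 7 lower on both knockout arrays (100%, against 17.7% of all genes). The 7 endothelial markers had means of 0.24, 0.10, -0.09 and -0.25. The 8 measured proliferation markers, of which 5 were well above background on every array, had means of 0.99, -0.93, 0.51 and -0.56. Of the 8, 6 were lowest on WT 2 (against 20.7% of all genes), the array that was also lowest for 20 of the 41 genes. The proliferation markers were low on knockout 2 as well, where the mean of the 41 genes was highest, at 0.10. The part of these cell types in the values of the respiratory genes was not tested.

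The other nuclear subunits of the complexes lay mainly on the negative side. Of 46 further genes listed as subunits of complexes I, III, IV and V, all tested, 37 had negative fold changes, with a median of -0.17. For 14 of them both knockout readings were lower than both WT readings (30.4%, against 17.7% of all genes) and for 1 higher (2.17%, against 17.8%). None had an unadjusted p under 0.05 in either direction. The imbalance of 1 against 14 depends on the scaling: 9 were higher and 15 lower without overlap after quantile normalization, 10 and 15 in the authors' deposited table, and 9 and 5 under median scaling. The direction of the fold changes depends on the scaling and on 1 array as well: 28 of the 46 were negative after quantile normalization and 21 under median scaling, where the median was 0.03 and that of all genes 0.19. Without knockout 1, 25 were negative, with a median of -0.05. Of the 46 subunits 31 were lowest on knockout 1, where the share of all genes is 30.2%. The muscle, brown adipocyte, milk protein and B cell markers also had their lowest list mean on that array. The white adipocyte, luminal, T cell, fibroblast, endothelial and proliferation markers had theirs on another array. Whether any of these cell types plays a part in the values of the 46 subunits was not tested.

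By complex, the 25 other subunits of complex I had a median of -0.17, from Ndufa5 at -0.51 ± 0.32 to Ndufa11 at 0.24 ± 0.24. Both are accessory subunits. Over the 37 nuclear genes listed here under complex I, the 7 that belong to the catalytic core had a median of 0.21, with 6 positive. Core subunits encoded in mitochondrial DNA had no matched probe. The 30 accessory subunits, with Ndufa4 counted among them, had a median of -0.12, with 23 negative. This split was chosen after the values were seen, and the difference was not tested. Both sides depend on the processing. The accessory median was 0.075 under median scaling, with 18 positive. It was -0.03 without knockout 1, with 16 negative, and 17 were negative after quantile normalization. The core median was 0.02 without WT 2, with 4 of 7 positive, and 0.094 with normexp correction. The core subunits had their lowest mean level on WT 2, at -0.30, and the accessory subunits on knockout 1, at -0.14.

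The 4 other subunits of complex III had a median of -0.17. Among them Uqcrh, the hinge protein, had -0.78 ± 0.31 on its brighter probe and 0.04 on a second one, and Uqcr11 had 0.05 ± 0.29. The 6 other genes listed under complex IV, with Cox7a2l placed there by its name, had a median of -0.27. They ran from Cox7a2l at -0.38 ± 0.26 to Cox6b1 at 0.10 ± 0.26. The 11 other subunits of complex V, counting the inhibitor Atpif1, had a median of -0.10. They ran from Atp5g3, a copy of the c-ring gene, at -0.53 ± 0.28 to Atp5g2, another copy, at 0.37 ± 0.32.

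Complex IV subunits with tissue-restricted expression differed widely in signal. Cox6a2, the heart and muscle form, read 6.77 and 6.996 on the WT arrays against 6.05 and 6.73 on the knockout arrays, lowest on knockout 1 (-0.49 ± 0.32). Cox7a1, another muscle form, read 7.63 and 7.27 against 7.33 and 7.90 (0.16 ± 0.31). Of the 7 genes listed, 4 were tested. Cox4i2 and Cox8c were not well above background on any array and did not pass the filter on dim probes, and Ndufa4l2 had no probe matched by name. The 13 subunits encoded in mitochondrial DNA were not analysed here, since none had a matched probe.

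The pyruvate list holds the carriers Mpc1 and Mpc2, pyruvate dehydrogenase with its kinases and a phosphatase, and pyruvate carboxylase. Its median was 0.32, with 8 of 11 positive and 6 without overlap above wild type (54.5%, against 17.8% of all genes). None passed at an unadjusted p under 0.05. The median was 0.20 without knockout 2 and 0.22 without WT 2. Pdha1, the alpha subunit of pyruvate dehydrogenase, read 3.84 and 3.59 on the WT arrays against 4.08 and 6.14 on the knockout arrays. Its fold change of 1.40 ± 0.68 came mainly from knockout 2, and its second probe gave 0.15. Pdk4, a kinase that switches the enzyme off, had the lowest, -0.16 ± 0.44, and the kinases Pdk1 and Pdk3 had 0.14 and 0.30. Of the carriers, Mpc1 had 0.34, or -0.02 on a second probe, and Mpc2 had -0.13.

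The list of carriers, which also holds genes of the Vdac, Tomm and Timm families, had a median of -0.02 over 13 genes. Of these, 2 were higher at an unadjusted p under 0.05, where the background share is 1.14%. Slc25a1, the citrate carrier, read 4.53 and 4.13 on the WT arrays against 5.36 and 5.62 on the knockout arrays, a fold change of 1.16 ± 0.28 (limma unadjusted p = 0.00767, adjusted p = 0.936). Slc25a10, the dicarboxylate carrier, read 4.31 and 4.43 against 5.34 and 4.87, a fold change of 0.74 ± 0.28 (unadjusted p = 0.0439, adjusted p = 0.936). Both were higher on both knockout arrays than on either wild-type array.

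The list named cytosolic and NADP-linked counterparts of the cycle enzymes also holds Acly and the aspartate aminotransferases Got1 and Got2, of which Got2 is mitochondrial. Its 7 genes had a median of 0.50, from Got1 at -0.38 ± 0.27 to malic enzyme, Me1, at 0.69 ± 0.42. Their probes did not always go together, since Aco1 had 0.61 on its brighter probe and -0.33 on another, and Mdh1 0.50 and -0.58. Among the other enzymes of the cycle, Suclg2, a further subunit of succinyl-CoA synthetase, had 0.35 ± 0.25, or -0.45 on its second probe. Ogdhl did not pass the filter on dim probes.

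In glycolysis the median was 0.00 over 17 genes. Aldoc, an aldolase, was the gene with an unadjusted p under 0.05, where the background share of lower genes is 2.41%. It read 3.55 and 4.45 on the WT arrays against 2.50 and 2.04 on the knockout arrays, a fold change of -1.73 ± 0.39 (limma unadjusted p = 0.00600, adjusted p = 0.936).

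Regulators of mitochondrial gene expression and DNA did not separate the groups. For none of the 15 did the groups fail to overlap, above or below (0%, against 17.8% and 17.7% of all genes). Their median was 0.02. They ran from Tfb2m, a mitochondrial transcription factor, at -0.43 ± 0.32 to Polg, the mitochondrial DNA polymerase, at 0.33 ± 0.29. Nrf1, whose motif was searched in the promoters, had -0.37 ± 0.34, or 0.01 on its second probe.

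Assembly factors, which help to build the complexes without staying in them, had a median of 0.17. Of 19 tested, 14 were positive, and for 10 both knockout readings exceeded both WT readings (52.6%, against 17.8% of all genes). None passed at an unadjusted p under 0.05. The lowest was Cox10, which acts in making the haem of complex IV, at -0.87 ± 0.46, and the highest Sco1, which delivers its copper, at 0.41 ± 0.29, though a second Sco1 probe gave -0.37. The median stayed positive under every scaling tried and with any 1 array left out, between 0.14 and 0.36.

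**Figure D4:**
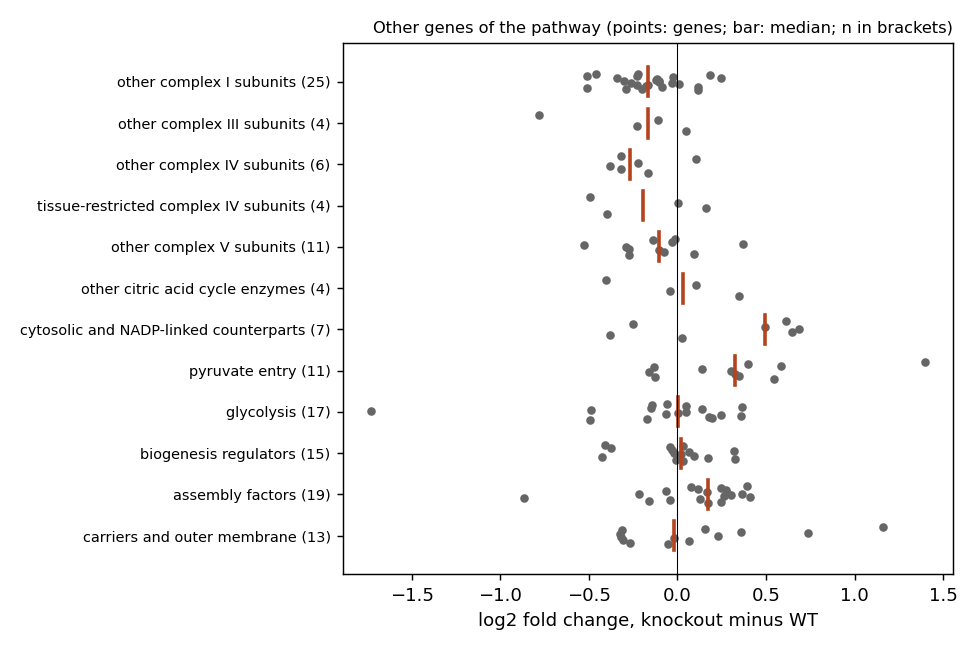
Log2 fold change (knockout minus wild type, horizontal axis) of each gene in 12 further lists of the pathway, with 1 point per gene and a bar at the list's median. Medians run from -0.27 in other complex IV subunits to 0.50 in the cytosolic and NADP-linked counterparts, and Aldoc at -1.73 and Pdha1 at 1.40 lie farthest out.

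Over these lists and the 13 mitochondrially encoded subunits, 136 of 155 genes were tested, and none passed the adjusted threshold. At an unadjusted p under 0.05, 2 were higher (background share 1.14%) and 1 was lower (2.41%). Without overlap, 28 lay above wild type (20.6%, against 17.8% of all genes) and 26 below (19.1%, against 17.7%), shares near those of all genes.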

How the data were processed

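Cy3-labelled total RNA of 4 mammary gland samples was measured on one-colour arrays of 1 slide in 1 scan, per the file headers. WT samples took its first positions, so genotype and position cannot be told apart. The authors deposited spot intensity files, background-subtracted by Agilent Feature Extraction (the file headers give version 11.5.1.1 and the submitters' processing notes 10.7.3.1) with nothing done between arrays. Their deposited table of log2 values matched quantile-normalized log2 signals centred on each probe's median.

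Analysed values were log2 processed signals with the array's 75th percentile (144 to 291) subtracted on the log2 scale. Control spots and outlier-flagged spots (35 to 73 per array) were left out, and spots of a probe averaged. Tested probes were well above background on both WT or both knockout arrays, 24183 of 41174. Accessions without version named 27816 probes (18952 genes) through RefSeq GRCm38.p6. The brightest probe stood for a gene. Whether probes also read pseudogene copies was not tested.

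The comparison used lmFit and eBayes of limma 3.58.1 (R 4.3.3) with no covariate, Benjamini-Hochberg over all tested probes, threshold 0.05, tested on simulated data. The members and lists were chosen with earlier results of these data known. Array values are given for members with an unadjusted p under 0.05, members without overlap and a fold change of at least 0.3, the highest and lowest of each complex, Cycs and the 3 widest ranges, and, for lists, genes with an unadjusted p under 0.05 or otherwise the highest and lowest. Other genes are named outside that rule, after their values were seen. One gene that the rule names among other enzymes of the cycle is not reported here. Alternatives covered normalization, background correction, the authors' table, dim-probe filters, probe choice, variance model, replicate block, threshold and each array left out. Deviations from the group means correlated weakly between samples of the same number (0.0648), so no pairing was used. With 2 arrays per group this check cannot exclude a pairing.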

Additional observations from a re-analysis of the deposited data

How the results depend on the processing

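The number of arrays limits every value, and dim genes are limited by signal over background. The cause of the differences below was not tested. No member passed an adjusted p of 0.05, or of 0.1, under any alternative. Over the alternatives the smallest adjusted p of a member was 0.400, without knockout 2. Over all tested probes 1 higher and 3 lower passed under median scaling and none in any other alternative. Median scaling moved the median of all genes to 0.19. Normexp correction used the median spot signal, the one in the files used here, in place of the planned mean.

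Of 410 member fold changes under alternatives that kept every array, 28 reversed, in 14 genes, and of 164 with 1 array left out, 17 reversed, in 12 genes. The remaining 24 genes had no reversal.

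The count of members at an unadjusted p under 0.05 was 1 in each direction. Higher members numbered 0 after quantile normalization, with the 75th percentile over probes detected on all arrays, in the authors' table and without the filter, 2 with normexp and 4 with an intensity trend. Lower members numbered 0 under median scaling and without the filter, and 2 with the trend and with the mean of a gene's probes. With 1 array left out the counts ran from 0 to 1 and from 0 to 2. Members below wild type without overlap numbered 1 under median scaling and 5 with normexp. A lone array overlaps less easily, so leaving out 1 gave 13 to 21 above and 9 to 18 below. Of the pathway genes, higher ones numbered 8 with normexp, 1 without the filter and 6 with the trend. Lower ones numbered 2 with the percentile over detected probes, without the filter and with the filter on all 4 arrays, and 3 with the trend. With 1 array left out they ran from 0 to 3 and from 1 to 8. Those below without overlap numbered 14 under median scaling, and leaving out 1 array gave 39 to 62 above and 36 to 66 below.

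With the replicate block, which the check of deviations did not bear out as a pairing, higher members at an unadjusted p under 0.05 numbered 0 and higher pathway genes 1. No other call changed with the block.

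Under median scaling the median of the members was 0.18, and those of complexes I, II, III, IV and V and the cycle were 0.35, 0.60, 0.067, -0.13, -0.048 and 0.35. With normexp that of complex IV was -0.10. With 1 array left out the members' median ran from -0.062 to 0.15, complex I from 0.019 to 0.31, complex III from -0.36 to 0.11, complex IV from -0.51 to -0.087 and the cycle from 0.042 to 0.27.

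Fold changes that reversed were mostly small. Under quantile normalization these were Ndufb8 (0.18), Ndufb9 (0.071) and Cox4i1 (0.20), and in the authors' table the same genes (0.18, 0.069 and 0.19). Under median scaling they were Ndufb8 (0.18), Ndufb9 (0.081), Ndufv2 (0.029), Sdhd (0.11), Uqcrc1 (0.066), Uqcrc2 (0.10), Uqcrb (0.067), Cox4i1 (0.12), Cs (0.019), Idh3a (0.15) and Sucla2 (0.019). With normexp they were Ndufs1 (-0.16), Sdhd (0.11), Uqcrc1 (0.026), Uqcrc2 (0.030), Uqcrb (0.039), Cycs (0.012), Cox4i1 (0.11), Idh3a (0.20) and Sucla2 (0.060). With the mean of probes they were Uqcrc1 (0.074) and Atp5b (0.021). With 1 array left out, the reversing ranges were -0.16 to 0.13 (Ndufb8), -0.51 to 0.72 (Ndufs3), -0.44 to 0.11 (Ndufv2), -0.33 to 0.17 (Sdhd), -0.41 to 0.16 (Uqcrc1), -0.42 to 0.23 (Uqcrc2), -0.36 to 0.11 (Uqcrb), -0.17 to 0.022 (Cox4i1), -0.50 to 0.15 (Cs), -0.17 to 0.085 (Idh3a), -0.053 to 0.35 (Suclg1) and -0.32 to 1.85 (Mdh2).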
